A study of Mus musculus with 30 samples.

Results

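The immediate early and heat shock genes described here were 35 gene symbols, 24 immediate early and 11 heat shock, taken by name from a table of 55291 symbols. They were measured by RNA-seq in 30 mouse libraries, 3 for each of 10 subcutaneously grown tumour lines. The lines were the colon carcinomas MC38 and CT26, MC38OVA (MC38 with ovalbumin), CT26NYESO1 (CT26 with the human antigen NY-ESO-1), the mammary carcinoma EMT6, the lung carcinoma LL2, the fibrosarcoma CMS5a, the renal carcinoma Renca, and the melanoma sublines B16F1 and B16F10. The series asks which tumour types suit OK-432, a streptococcal preparation injected into tumours. All libraries carry the label of CD45+ immune cells from tumours, while the extraction notes give RNA from suspensions of tumours 10 mm long that had been minced and enzyme-treated. Hosts were BALB/cJ or C57BL/6J mice with or without OK-432 for 24 hours. Neither strain nor treatment is tied to a library, and ages are not given, so the groups used were the 10 lines. Nothing in the labels says that the 3 libraries of a line came from separate mice, so p values measure only the spread between these samples.

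Immediate early genes are transcribed within minutes of a stimulus without new protein synthesis, because their activators, such as serum response factor with its ETS partners and CREB, are already present and are switched on by kinases. Many encode transcription factors (the FOS and JUN proteins that pair as AP-1, and the EGR, NR4A and KLF zinc finger proteins and receptors), and others encode proteins that shut the response down. Heat shock genes encode chaperones that hold or refold damaged proteins, and heat shock factor HSF1 raises the inducible ones by binding repeats of GAA and TTC in their promoters. Both groups are known to respond to tissue handling, including the digestion of solid tissue into cell suspensions, as well as to growth factor, cytokine and stress signals in tumours and infiltrating leukocytes.

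The sequences below show the elements named above in promoters of members that the results turn on, from RefSeq on GRCm38.p6, with each window ending before the start of transcription. Capitals mark GAANNTTC or TTCNNGAA in the heat shock genes, the cyclic AMP response element TGACGTCA in Dusp1 and Btg2, and its part TGACG together with TATAAA in Fos.
Hspa1a: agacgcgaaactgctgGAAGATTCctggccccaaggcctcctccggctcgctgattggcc
Hspa1b: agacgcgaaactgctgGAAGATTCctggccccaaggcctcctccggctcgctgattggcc
Hspb1: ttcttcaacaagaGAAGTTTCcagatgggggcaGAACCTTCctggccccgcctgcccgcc
Dusp1: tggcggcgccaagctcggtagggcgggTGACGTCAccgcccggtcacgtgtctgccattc
Btg2: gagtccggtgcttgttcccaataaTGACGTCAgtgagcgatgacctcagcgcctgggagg
Fos: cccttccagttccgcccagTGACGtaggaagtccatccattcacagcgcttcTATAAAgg
The windows of 60 bases lie at chr17:34972217-34972276 (Hspa1a, minus strand), chr17:34959299-34959358 (Hspa1b, minus strand), chr5:135887789-135887848 (Hspb1, plus strand), chr17:26508583-26508642 (Dusp1, minus strand, within an intron of a longer annotated Dusp1 transcript), chr1:134079286-134079345 (Btg2, minus strand) and chr12:85473805-85473864 (Fos, plus strand). Hspa1a and Hspa1b are neighbours whose printed windows are identical at 60 of 60 bases, and 247 of the 250 bases before their starts match. Promoters were found for 28 of the 35 members, and each motif was searched on both strands in those 250 bases, where TGACG lies within TGACGTCA and may overlap other motifs. GAANNTTC or TTCNNGAA was found in 6 of 8 heat shock members (Hspa1a, Hspa1b, Hspb1, Hspd1, Hspe1 and Hsph1) and in 2 of 20 immediate early members (Egr2 and Jun), against 14.5% of 27025 genes. Members share some of these matches: Hspd1 and Hspe1 lie head to head, and 3 of 3 matches are the same bases read on opposite strands. TGACGTCA was found in 2 of 20 immediate early members, Btg2 and Dusp1, against 1.77% of genes, and TGACG in 12 of 20 against 19.8%. The CArG box bound by serum response factor was found in Egr2 and Zfp36, against 1.62% of genes, GGGCGG in 18 of 20 immediate early and 8 of 8 heat shock members against 35.4%, TGANTCA in Bag3 alone of the 28 against 7.82%, and TATAAA in Fos alone against 8.94%. A match is only a run of letters.

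Values are TPM, each transcript's length-scaled share of its library, from which read depth cannot be recovered. Libraries held 12065 to 14602 genes at 1 TPM or more, with 9.17% to 39.0% of TPM in mitochondrial and 0.0222% to 7.70% in haemoglobin transcripts. The leukocyte markers (10 genes, with Ptprc for CD45 among them) were weakest in the melanomas, with a mean log2(TPM + 1) of 4.24 ± 0.70 in B16F1 and 4.08 ± 0.66 in B16F10 (SD, n = 3) against 5.32 (Renca) to 7.12 (MC38OVA) in the other lines. The 4 melanocyte markers summed to 1372 to 6435 TPM in B16F1 and 8623 to 12462 in B16F10, and to at most 1.28 elsewhere, so those libraries go against their label in part and results without them are given below. In such bulk RNA fewer cells of a type and less RNA per cell cannot be told apart.

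All 35 members passed the filter of 1 TPM in at least 3 libraries. Of the immediate early members 19 of 24, and of the heat shock members 9 of 11, reached 1 TPM in every library. Line means of log2(TPM + 1) differed between the 10 lines for 24 of 24 immediate early and 11 of 11 heat shock members in limma's F test (adjusted p under 0.05 and line means at least 1 apart on the log2 scale). That share has to be read against 85.5% of the 17944 genes tested. The distance between the highest and the lowest line mean had a median of 3.30 (log2) over the immediate early members and 1.93 over the heat shock members, beside 1.71 over all genes tested. It was widest for Cryab at 7.93, Hspb1 at 7.27 and Fosl1 at 6.89 (limma F test, adjusted p of 1.6e-22, 1.2e-16 and 5.3e-19), and narrowest for Hspe1 at 1.10 and Bag3 at 1.23 (adjusted p of 0.0097 and 0.0044). EMT6 had the highest line mean for 7 of 24 immediate early members, and B16F10 the lowest for 16 of 24. How many of all genes had their highest or lowest mean in a given line was not counted, here or for later such counts. In B16F10 23.2% of all genes were called lower than the average of the other lines, so low means were common there. For the heat shock members no line dominated: EMT6 and MC38 were highest for 3 each, and Renca was lowest for 4. Summed over the 24 immediate early members, TPM ran from 424 ± 51.9 in B16F10 to 1993 ± 289 in EMT6 (SD, n = 3). The 11 heat shock members summed to 2399 ± 103 in Renca and 3968 ± 877 in B16F10, the ends of their order, with MC38 at 3883 ± 834 within the spread of B16F10.

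**Figure D1:**
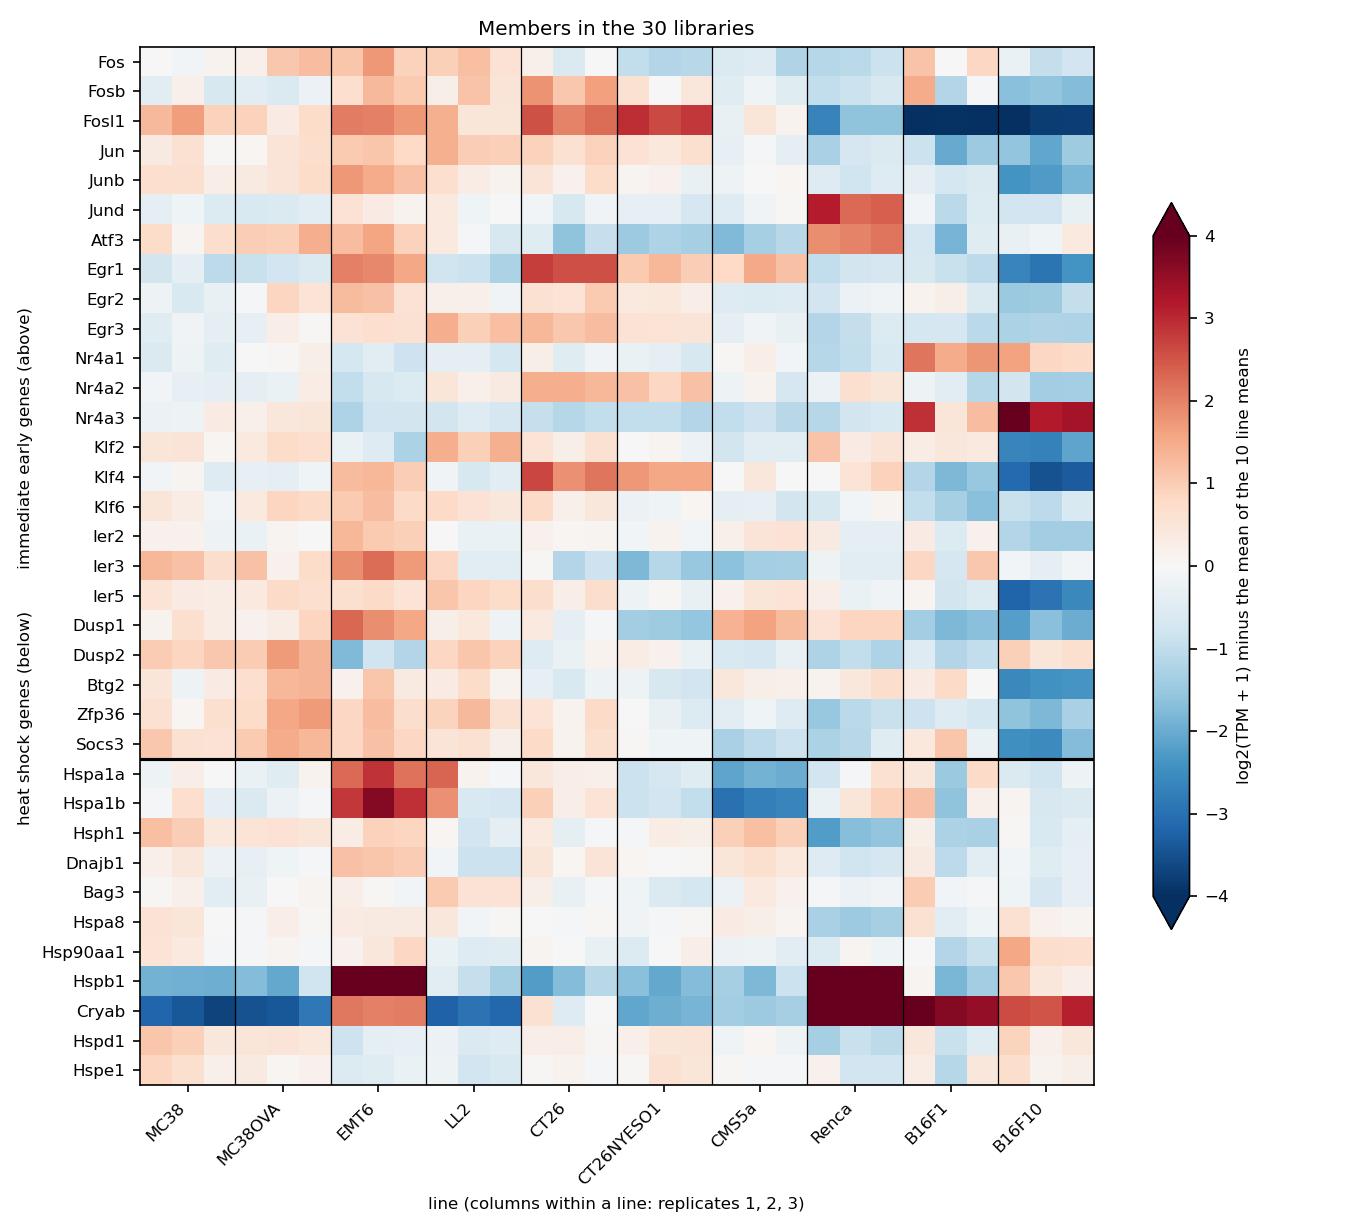
Each cell is the log2(TPM + 1) of a member (vertical axis) in a library (horizontal axis, 3 replicates per line), minus the mean of the 10 line means, with colours saturating at 4. EMT6 is red for most immediate early members, B16F10 is blue for most of them, and the widest contrasts lie in Cryab, Hspb1 and Fosl1.

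The AP-1 subunits did not share a line of highest expression. Fos, the founding member, measured 70.4, 109 and 61.6 TPM in EMT6 (replicates 1, 2 and 3, the order used throughout), 37.3, 69.6 and 77 in MC38OVA and 63.1, 76.2 and 48.7 in LL2, against 16, 13.6 and 14.5 in CT26NYESO1 and 14, 14.7 and 17.1 in Renca. EMT6, MC38OVA and LL2 overlapped each other, and each of their libraries was above every library of CT26NYESO1 and Renca. Fosb, a close relative, was highest in CT26 at 15.8, 9.08 and 13.8 TPM and lowest in B16F10 at 0.493, 0.616 and 0.429, with B16F10 below every other library. Fosl1, which encodes FRA-1, a FOS relative without a strong activation domain, measured 137, 109 and 125 TPM in CT26NYESO1, 102, 68.7 and 82.2 in CT26 and 72, 70.9 and 58.3 in EMT6. It was close to absent from the melanomas, where it was listed at 0, 0.148 and 0 TPM in B16F1 and 0.109, 0.277 and 0.293 in B16F10. All 3 CT26NYESO1 libraries were above every other library for this gene, the nearest being CT26 replicate 1. Fosl1 (chr19:5447547-5455946, mm10) overlaps Ccdc85b on the other strand by 2767 bases, and Ccdc85b itself was highest in CT26NYESO1 at 65.3 ± 6.62 TPM (SD, n = 3) and lowest in B16F10 at 3.84 ± 0.23. The sources used here do not give whether quantification used the strand, so reads of such overlapping genes may not be told apart.

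Jun, the main partner of FOS, was highest in LL2 at 176, 128 and 126 TPM and EMT6 at 135, 141 and 113, and lowest in B16F10 at 20.8, 14.7 and 23.6. Junb, a JUN relative that often restrains JUN, was highest in EMT6 at 392, 327 and 261 TPM and lowest in B16F10 at 21.6, 23.2 and 31.8. EMT6 lay above and B16F10 below all other libraries for Junb, and the rest spread from 65.9 to 193 TPM. Jund, the family member usually expressed steadily, stood apart in Renca at 673, 367 and 404 TPM, while the other 27 libraries lay from 35.7 to 113 TPM. Even the lowest Renca library was above the highest of the rest, EMT6 replicate 1. Jund (chr8:70698949-70700616) is a short gene whose overlapping antisense gene Gm11175 reached at most 0.261 TPM. Atf3, a stress-induced factor that pairs with JUN, was also highest in Renca at 70.1, 75.8 and 86 TPM, above all other libraries. It was lowest in CMS5a at 4.75, 6.84 and 8.06 and CT26NYESO1 at 6.09, 7.36 and 6.71, 2 lines that overlapped.

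**Figure D2:**
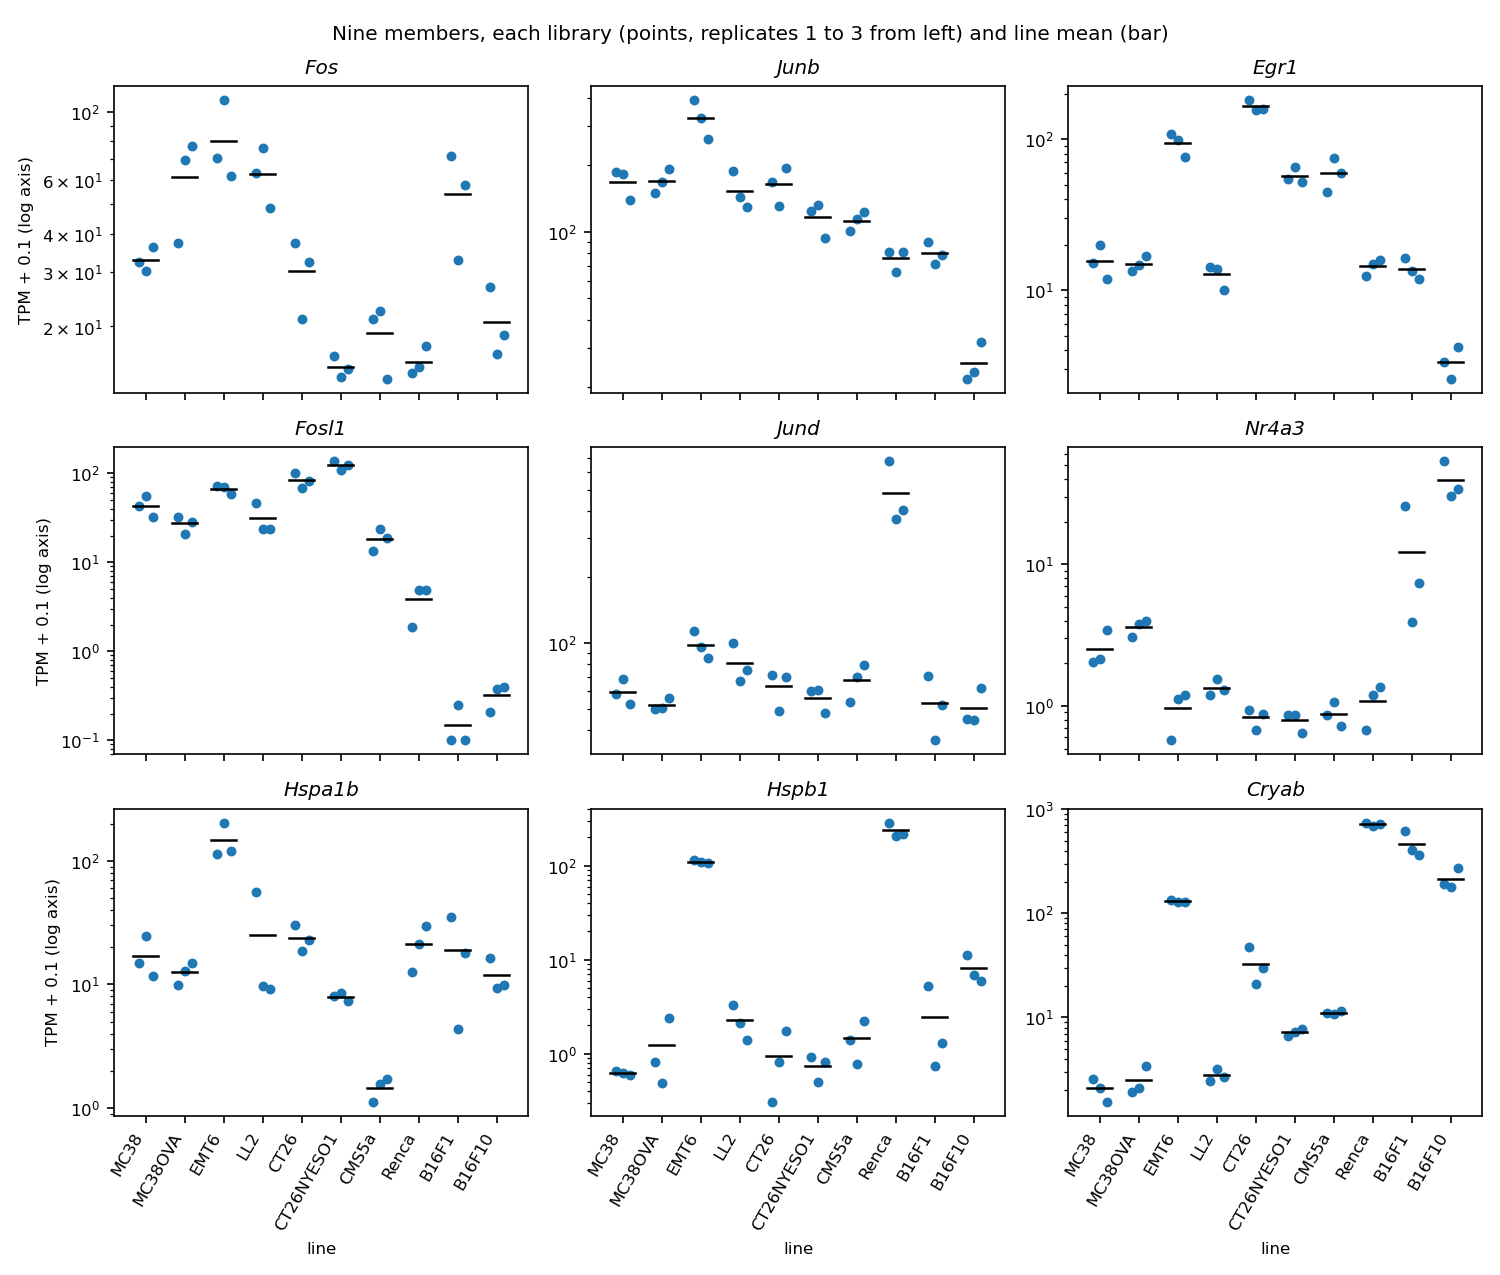
TPM + 0.1 on a log axis for 9 members (panels) in the 10 lines (horizontal axis), with each point a library and each bar the mean of its line. Jund and Hspb1 peak in Renca, Hspa1b in EMT6, Egr1 in CT26 and Nr4a3 in B16F10, while Fosl1 drops in both melanoma lines.

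The EGR, NR4A and KLF factors had different leading lines, and 6 of these 9 had their lowest mean in B16F10. Egr1, a zinc finger factor induced through MAP kinases, measured 181, 157 and 158 TPM in CT26 and 108, 99.1 and 76.3 in EMT6, against 3.22, 2.48 and 4.07 in B16F10. CT26 was above and B16F10 below all other libraries, and CT26NYESO1 (53.9, 65.3 and 51.9) overlapped CMS5a (44.8, 74.4 and 59.3). Egr2 and Egr3, its relatives with roles in lymphocyte and myeloid activation, were low throughout, from 0.594 to 9.83 and from 0.19 to 6.91 TPM, with their highest means in EMT6 and LL2 and B16F10 lowest for each. Klf4, a factor of epithelial and myeloid differentiation, was highest in CT26 at 165, 91.8 and 114 TPM, followed by CT26NYESO1 at 84.2, 75.2 and 73.9, and lowest in B16F10 at 2.03, 1.32 and 1.56. Klf2, which marks quiescent T cells and endothelium, was highest in LL2 at 50.5, 35.4 and 49.3 TPM and lowest in B16F10 at 2.0, 1.9 and 3.33, again below all other libraries. Klf6, a broadly expressed relative, ranged from 18.5 to 143 TPM with its highest mean in EMT6 and its lowest in B16F1.

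The 3 NR4A genes encode orphan nuclear receptors induced by antigen receptor and cyclic AMP signals, and each had its own leading line. Nr4a1 was highest in B16F1 at 75.6, 47.4 and 58.6 TPM and B16F10 at 52.5, 30.03 and 28.4, against 6.83 to 19.99 TPM in the other 24 libraries, with Renca lowest. Nr4a3 was highest in B16F10 at 53.3, 30.4 and 33.8 TPM, followed by B16F1 at 25.6, 3.83 and 7.24, and no library of another line passed 3.85 TPM, although replicate 2 of B16F1 lay just under that value. The melanomas thus held the highest Nr4a1 and Nr4a3 although their immediate early genes were otherwise mostly low. Nr4a2 went the other way, with 15.2, 15 and 13.8 TPM in CT26 and 12.3, 9.37 and 12.1 in CT26NYESO1, and its lowest mean in B16F10 at 1.69 ± 0.73 TPM (SD, n = 3).

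Most feedback and response genes had their highest mean in EMT6 or MC38OVA, with Ier5 the exception. Ier3, which encodes a small protein that limits MAP kinase and survival signals, was the most abundant immediate early gene in EMT6 at 448, 591 and 407 TPM, above all other libraries, and was lowest in CT26NYESO1 at 34.9, 55.4 and 42.7. Ier2, a nuclear protein of the same response, was also highest in EMT6 at 122, 99.4 and 92.3 TPM and lowest in B16F10 at 20.8, 17.5 and 17.4. Ier5, which takes part in HSF1 regulation, was highest in LL2 at 67.7, 57.2 and 52.9 TPM, overlapping EMT6 at 49.3, 54 and 46.3, and dropped to 2.45, 3.13 and 4.38 TPM in B16F10 from 18.1 to 67.7 in the other 27 libraries. Dusp1, a phosphatase that inactivates p38 and JNK, measured 149, 109 and 88.7 TPM in EMT6 and 79, 91.3 and 72.5 in CMS5a, against 10.6, 10.4 and 9.36 in CT26NYESO1 and 5.65, 8.5 and 6.69 in B16F10. EMT6 and CMS5a overlapped, and both were above every library of the other 8 lines. Dusp2, a phosphatase of activated lymphocytes and myeloid cells, behaved differently, with its highest values in MC38OVA at 13.3, 22 and 17.1 TPM and its lowest mean in EMT6 at 1.06, 3.04 and 2.11. Zfp36, which encodes tristetraprolin and degrades cytokine mRNAs, Socs3, the inhibitor of cytokine receptor signals, and the antiproliferative Btg2 were each highest in MC38OVA, with means of 84 ± 27.3, 107 ± 15.6 and 35 ± 9.02 TPM (SD, n = 3), and lowest in B16F10, with 10.1 ± 1.9, 8.62 ± 3.22 and 1.96 ± 0.24.

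Of the heat shock genes, the inducible cytosolic chaperones Hspa1a, Hspa1b and Dnajb1 were led by EMT6. Hspa1b, the inducible HSP70, measured 113, 204 and 121 TPM in EMT6 and 1.02, 1.45 and 1.6 in CMS5a, with the other 24 libraries from 4.23 to 55.8 TPM. EMT6 lay above and CMS5a below all other libraries. Its neighbour Hspa1a had the same highest and lowest line at a lower level, 38.6, 60.7 and 36.4 TPM in EMT6 and 0.908, 1.26 and 1.09 in CMS5a. Transcripts of these genes (Hspa1a at chr17:34969190-34972156, Hspa1b at chr17:34956436-34959238, mm10) align over 2197 bases with 99.3% identity, so reads may be shared and the level of each is uncertain. The ratio of Hspa1b to Hspa1a ran from 1.13 to 3.56, with a median of 2.18. Dnajb1, the HSP40 cochaperone of HSP70, was highest in EMT6 at 97.6, 93.5 and 88.1 TPM, above all other libraries, whereas Hsph1, an HSP110 nucleotide exchange factor, was highest in CMS5a at 127, 150.5 and 126 TPM and lowest in Renca at 13.1, 19.5 and 21. Bag3, which links HSP70 to autophagy, had its highest mean in LL2 at 52.8 ± 10.7 TPM (SD, n = 3) and ranged from 18.4 to 65.2 TPM.

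The abundant cytosolic chaperones and the mitochondrial chaperonins varied less. Hspa8, the constitutive HSC70, was the most abundant member, from 1036 to 2162 TPM in 27 libraries and 571, 511 and 562 in Renca, which lay below all others. Hsp90aa1, the inducible HSP90, had its highest mean in B16F10 at 988, 552 and 539 TPM and its lowest in B16F1 at 339.6, 149 and 182. Hspd1 and Hspe1, the subunits HSP60 and HSP10 of the mitochondrial chaperonin, were highest in MC38 at 1050.4, 942 and 661 and 641, 557 and 412 TPM. Their starts lie 111 bases apart, their ratio had a median of 1.47 over the 30 libraries, and 5 and 6 annotated pseudogenes bear their names, which may share reads.

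The small heat shock proteins had the widest ranges of all 35. Cryab, the alphaB-crystallin of muscle, lens and many carcinomas and gliomas, measured 744, 691 and 716 TPM in Renca, 624, 403 and 359 in B16F1, 192, 179.5 and 271 in B16F10 and 135, 127 and 129 in EMT6, against 2.48, 2.0 and 1.45 in MC38. The first 4 lines were above every library of the other 6, which lay from 1.45 to 47.4 TPM. Hspb1, the HSP27 homologue, measured 287, 204 and 219 TPM in Renca and 114, 111 and 106 in EMT6, and 0.209 to 11.2 TPM in the other 24 libraries. Cryab (chr9:50751325-50756636) overlaps Hspb2 on the other strand by 1030 bases, and Hspb2, another small heat shock gene, averaged 30.8 ± 18.6 TPM in Renca, 44.9 ± 9.36 in B16F1, 29.5 ± 7.49 in B16F10 and 17.8 ± 2.11 in EMT6 (SD, n = 3) and at most 1.17 TPM in any other library. The 4 epithelial markers Krt8, Krt18, Epcam and Cdh1 summed to 1322 to 2022 TPM in Renca and 618 to 709 in EMT6, with 4 of 4 at 1 TPM or more in every library of these lines. In LL2 the sum was 177 to 319, and in the other 7 lines it reached at most 14.4. The part of such non-leukocyte RNA in the levels of Hspb1 and Cryab was not tested.

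The same limma model then set every line against the average of the remaining 9, and members were called at an adjusted p under 0.05 (adjusted over 17944 genes) with a log2 difference of at least 1. The 10 comparisons share libraries and are not independent. The direction counts are shown with the share of all genes called in that direction.

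**Figure D3:**
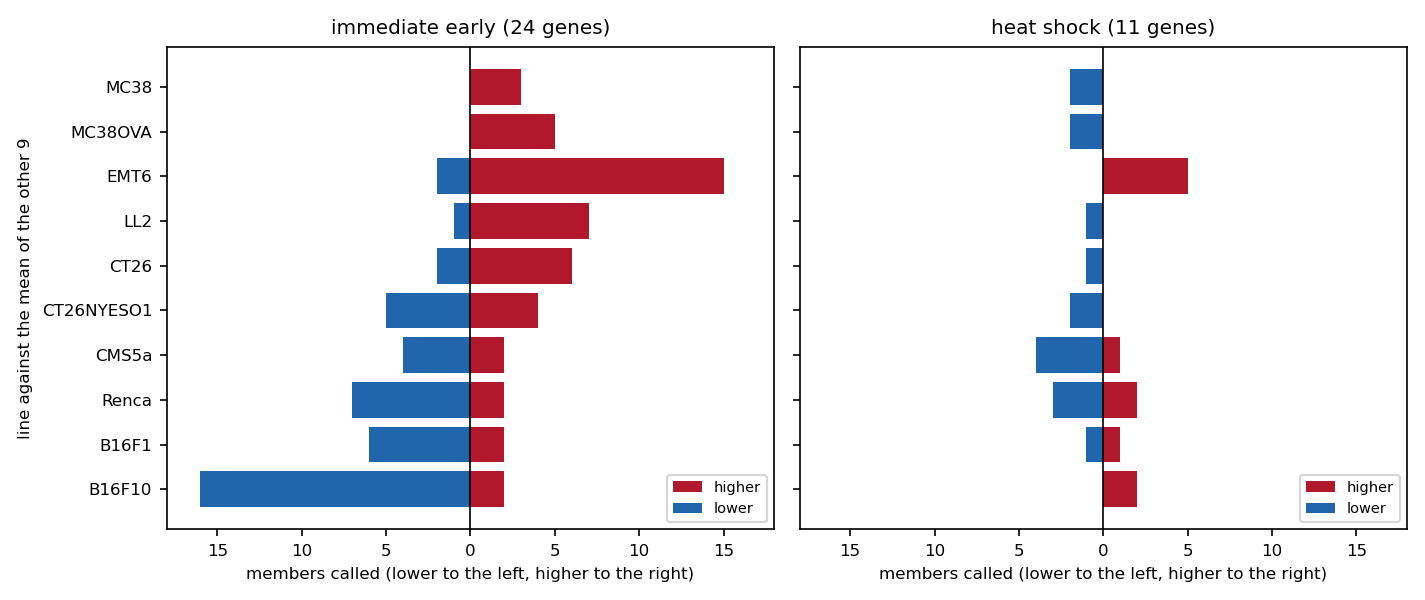
Number of immediate early (left, of 24) and heat shock (right, of 11) members called higher (red, to the right) or lower (blue, to the left) in a line relative to the average of the remaining 9. EMT6 has 15 immediate early members higher, and B16F10 has 16 lower.

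In EMT6, 15 of 24 immediate early members were higher, where 10.2% of all genes were, and 2 were lower (Dusp2 and Nr4a3), where 4.7% were. The AP-1 genes Fos, Fosb, Fosl1, Jun, Junb and Atf3, the factors Egr1, Egr2, Klf4 and Klf6, and the response genes Dusp1, Ier2, Ier3, Socs3 and Zfp36 made up the rise. The median difference was 1.10 (log2) over the immediate early and 0.78 over the heat shock members, against 0.04 over all genes. Fosl1 was higher by 2.16 ± 0.20 (SE, limma adjusted p = 1.3e-09), Ier3 by 2.15 ± 0.28 (3.1e-07) and Dusp1 by 2.12 ± 0.17 (4.9e-11). Dusp2 differed by -1.40 ± 0.18 (limma adjusted p = 3.3e-07) and Nr4a3 by -1.02 ± 0.26 (0.0021). Of the heat shock members 5 of 11 were higher (Cryab, Dnajb1, Hspa1a, Hspa1b and Hspb1), with Hspb1 at 4.74 ± 0.28 (9.8e-14), Hspa1b at 3.49 ± 0.40 (4.2e-08) and Hspa1a at 2.71 ± 0.36 (5.3e-07). The 5 neutrophil markers summed to 1186 to 1642 TPM in EMT6, with 5 of 5 at 1 TPM or more in every library, against 4.44 to 549 elsewhere. Most of that sum was S100a9 and S100a8, with means of 976 and 307 TPM. These and Cxcr2 had their highest mean in EMT6. Retnlg was highest in MC38 (15.5 against 13.0 in EMT6) and Csf3r in MC38OVA (47.1 against 38.6). Markers of cells other than leukocytes were high as well. The 4 epithelial markers summed to 618 to 709 TPM in EMT6, below Renca (1322 to 2022) and above every other line. Most of this was Krt8, with a mean of 610 TPM, while Krt18 was lower in EMT6 than in LL2, where it averaged 128. The 4 fibroblast markers summed to 1607 to 2528, below CMS5a (4173 to 5330) and LL2 (2745 to 3611). The part of these cell types in the rises was not tested. The immediate early rises numbered 10 under median-ratio scaling or when TPM were rescaled without mitochondrial and haemoglobin genes, and 8 without the B16F1 and B16F10 libraries, where Nr4a3 differed by -0.32. That rescaling moved the share of higher genes among all calls in EMT6 from 68.5% to 55.8%. Nr4a3 fell short of the log2 threshold without EMT6 replicate 1 (-0.85), B16F1 replicate 1 (-0.94), B16F10 replicate 1 (-0.99) or MC38 replicate 3 (-0.995).

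B16F10 stood at the opposite end for immediate early genes. Here 16 of 24 were lower, where 23.2% of all genes were, and 2 were higher (Nr4a1 and Nr4a3), where 5.28% were. The lower ones were Fosb, Fosl1, Jun, Junb, Egr1, Egr2, Egr3, Nr4a2, Klf2, Klf4, Dusp1, Ier2, Ier5, Btg2, Socs3 and Zfp36. Fosl1 differed by -4.28 ± 0.20 (SE, limma adjusted p = 7.1e-16) and Klf4 by -3.67 ± 0.17 (5.4e-16), while Nr4a3 was higher by 3.88 ± 0.26 (8.0e-13) and Nr4a1 by 1.19 ± 0.17 (9.2e-07). The median was -1.61 (log2) over the immediate early members and -0.48 over all genes, so most of the list lay below a library-wide shift. Median-ratio scaling moved the all-gene median to -0.14 and the share of higher genes among all calls from 18.6% to 41.3%, and left 14 immediate early members lower, with Ier2 and Nr4a2 no longer called, and 3 higher. The heat shock members did not follow: their median was 0.33, and Cryab at 3.04 ± 0.17 (2.7e-14) and Hsp90aa1 at 1.09 ± 0.20 (3.9e-05) were higher, with Hspb1 and Hspd1 added under median-ratio scaling. Without B16F10 replicate 1, Nr4a1 (0.91) and Hsp90aa1 (0.81) fell short of the log2 threshold of 1. Of the 10 leukocyte markers 8 had their lowest line mean in B16F10, Ptprc among them at 5.39 ± 2.83 TPM (SD, n = 3), and 9 of 10 were at 1 TPM or more in every library. The 10 summed to 483 to 689 TPM in B16F10, most of it Arhgdib at 395.7 ± 47.8, and without Arhgdib to 86.9 to 262, against 118 to 342 in B16F1 and 373 to 2368 in the other 8 lines. The part of this and of the melanocyte RNA in the low immediate early values was not tested.

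In B16F1, 6 of 24 immediate early members were lower (Atf3, Dusp1, Fosl1, Jun, Klf4 and Klf6), where 13.2% of all genes were, and Nr4a1 and Nr4a3 were higher, where 8.52% were. Nr4a1 was higher by 1.997 ± 0.17 (SE, limma adjusted p = 1.1e-10) and Nr4a3 by 1.73 ± 0.26 (2.7e-06), whereas Fosl1 differed by -4.53 ± 0.20 (2.0e-16) and Dusp1 by -1.80 ± 0.17 (8.0e-10). Cryab was higher by 4.25 ± 0.17 (2.1e-17) and Hspb1 differed by -1.14 ± 0.28 (0.0011). Hspb1 fell short of the threshold without B16F1 replicate 2 (-0.75) or replicate 3 (-0.97). Without replicate 2, 4 immediate early members were higher, and without replicate 1 Hsp90aa1 and Hsph1 joined Hspb1 as lower. Calls over all genes moved too, from 1528 higher and 2366 lower in the main fit. They were 1974 and 2402 without replicate 2, and 1148 and 2854 without replicate 1.

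In CT26 the rise was in a few factors, with 6 of 24 immediate early members higher (Egr1, Egr3, Fosb, Fosl1, Klf4 and Nr4a2), where 8.25% of all genes were, and Atf3 and Nr4a3 lower, where 4.91% were. Egr1 was higher by 2.94 ± 0.15 (SE, limma adjusted p = 9.7e-15), Fosl1 by 2.51 ± 0.20 (8.6e-11) and Klf4 by 2.47 ± 0.17 (4.0e-12). Atf3 differed by -1.12 ± 0.24 (3.5e-04), which fell to -0.82 and below the threshold without CT26 replicate 2, and Nr4a3 by -1.12 ± 0.26 (9.4e-04), which was -0.43 and not called without the melanoma lines. Among the heat shock members only Hspb1 was called, at -1.90 ± 0.28 (3.4e-06). In CT26NYESO1, 4 immediate early members were higher (Egr1, Fosl1, Klf4 and Nr4a2), where 6.84% of all genes were, and 5 were lower (Atf3, Dusp1, Fos, Ier3 and Nr4a3), where 5.71% were. Fosl1 was higher by 3.13 ± 0.20 (1.3e-12), Klf4 by 1.78 ± 0.17 (3.0e-09) and Egr1 by 1.25 ± 0.15 (2.2e-07), and Ier3 and Dusp1 differed by -1.65 ± 0.28 (2.1e-05) and -1.62 ± 0.17 (1.2e-08). Cryab and Hspb1 were lower, at -2.18 ± 0.17 (6.3e-11) and -2.02 ± 0.28 (1.4e-06). Without the melanoma lines 2 of the 4 rises were called, and Egr1 was at 0.78.

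In LL2, 7 of 24 immediate early members were higher (Dusp2, Egr3, Fos, Ier5, Jun, Klf2 and Zfp36), where 7.98% of all genes were, and Egr1 was lower, where 6.53% were. Klf2 was higher by 1.43 ± 0.18 (SE, limma adjusted p = 2.0e-07), Egr3 by 1.34 ± 0.13 (3.9e-09) and Jun by 1.24 ± 0.18 (3.2e-06), and Egr1 differed by -1.09 ± 0.15 (1.8e-06). Egr1 was below the threshold without LL2 replicate 3 (-0.94). It was also below it after rescaling without mitochondrial and haemoglobin genes (-0.99). The number of rises was 5 without LL2 replicate 1 or replicate 2 and 4 without the melanoma lines, where Jun was at 0.83. Over all genes 1285, 1417 and 1145 were called higher in those fits, in that order, from 1432. Cryab was the only heat shock member called, at -3.46 ± 0.17 (4.0e-15), and the median over the 11 was -0.47 against -0.06 over all genes. Hspb1 became a second lower member under median-ratio scaling, without the melanoma lines, and without LL2 replicate 1. The count was also 2 without B16F1 replicate 2 or 3, B16F10 replicate 2 or 3, CMS5a replicate 2, CT26 replicate 1, CT26NYESO1 replicate 2, MC38OVA replicate 1 or 2, or Renca replicate 2. Hspa1a was called higher without LL2 replicate 2 or 3 or after the rescaling.

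The MC38 lines shared Dusp2 as a higher gene and low small heat shock genes, traits that were not particular to them. Dusp2 was also called higher in LL2, and Cryab and Hspb1 were both called lower in CT26NYESO1 and CMS5a as well. Hspb1 was low in most lines, with a median of 1.48 TPM and 18 libraries at 1 TPM or more. The averages of the other lines include Renca and EMT6, where both genes were high. In MC38, 3 immediate early members were higher, where 8.24% of all genes were: Fosl1 by 1.44 ± 0.20 (SE, limma adjusted p = 2.0e-06), Ier3 by 1.18 ± 0.28 (0.0011) and Dusp2 by 1.10 ± 0.18 (1.7e-05). The rise of Fosl1 was not called without the melanoma lines, where it was 0.35 and Egr1 was called lower, and Dusp2 was at 0.94 under median-ratio scaling. Cryab and Hspb1 were lower, where 4.06% of all genes were, at -3.80 ± 0.17 (6.2e-16) and -2.13 ± 0.28 (6.5e-07). Without MC38 replicate 3, Hspd1 and Hsph1 were called higher, and without B16F1 replicate 1 a heat shock member was. Calls over all genes also rose without MC38 replicate 3, to 1919 higher from 1479. In MC38OVA, 5 immediate early members were higher (Atf3, Btg2, Dusp2, Socs3 and Zfp36), where 10.2% of all genes were, with Dusp2 at 1.51 ± 0.18 (1.2e-07), Zfp36 at 1.48 ± 0.18 (2.2e-07) and Socs3 at 1.43 ± 0.20 (1.9e-06). Cryab and Hspb1 were lower, where 3.59% of all genes were, at -3.61 ± 0.17 (2.4e-15) and -1.70 ± 0.28 (1.6e-05). Without the melanoma lines Btg2 was not called in MC38OVA, Nr4a3 was, and Egr1 and Klf4 were lower.

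CMS5a combined high Dusp1 and Egr1 with the lowest HSP70. Of the immediate early members, Dusp1 at 1.58 ± 0.17 (SE, limma adjusted p = 1.4e-08) and Egr1 at 1.29 ± 0.15 (1.0e-07) were higher, where 9.23% of all genes were, although Egr1 was at 0.82 without the melanoma lines, where Cryab was not called either. Atf3, Ier3, Nr4a3 and Socs3 were lower, where 4.49% were, with Ier3 at -1.60 ± 0.28 (2.9e-05) and Atf3 at -1.55 ± 0.24 (4.8e-06). Of the heat shock members Hspa1b at -3.09 ± 0.40 (3.5e-07), Hspa1a at -2.22 ± 0.36 (1.2e-05), Cryab and Hspb1 were lower, and Hsph1 was higher by 1.15 ± 0.23 (2.1e-04), or 0.99 under median-ratio scaling and then not called. HSP70 and Hsph1 thus differed in sign in this line, although both are known targets of HSF1. Hsf1 itself had its highest mean in CMS5a at 119.8 ± 16.4 TPM (SD, n = 3), against 25.3 ± 3.08 in B16F10, the lowest. CMS5a also had the highest sum of the 4 fibroblast markers, 4173 to 5330 TPM with 4 of 4 at 1 TPM or more, against 3.87 to 3611 elsewhere, and its part in these differences was not tested.

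Renca had 2 immediate early members higher, where 12.4% of all genes were, and 7 lower (Dusp2, Egr3, Fos, Fosl1, Nr4a1, Socs3 and Zfp36), where 10.5% were. Jund was higher by 2.88 ± 0.18 (SE, limma adjusted p = 1.3e-13) and Atf3 by 2.22 ± 0.24 (7.4e-09), whereas Fosl1 differed by -2.18 ± 0.20 (6.3e-10) and Zfp36 by -1.29 ± 0.18 (1.0e-06). The number of lower members was 4 under median-ratio scaling and 4 without Renca replicate 1. Calls over all genes also fell in those fits, to 1630 and 1547 lower from 1890. Of the 11 heat shock members 5 were called: Hspb1 at 5.95 ± 0.28 (3.3e-16) and Cryab at 5.004 ± 0.17 (3.0e-19) were higher, while Hsph1 at -2.04 ± 0.23 (2.4e-08), Hspa8 at -1.52 ± 0.17 (1.6e-08) and Hspd1 were lower.

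The antigen-bearing lines were compared with their parents, and B16F10 with B16F1. Between MC38OVA and MC38 limma called 0 of the 35 members, with 1.14% of all genes higher and 0.167% lower. At an unadjusted p under 0.05, 5 immediate early members were higher, 1 was lower, and 0 of 11 heat shock members passed. The share of all genes at that unadjusted threshold was not computed, so these counts have no background beside them. Fos measured 37.3, 69.6 and 77 TPM in MC38OVA and 32.3, 30.2 and 36.1 in MC38, so replicate 1 of MC38OVA lay close to the parent and the other 2 well above it. Without that replicate Btg2, Egr2, Fos and Zfp36 were called higher, while calls over all genes rose to 554 higher (from 205) and 50 lower (from 30). In CT26NYESO1 against CT26, with 0.379% of all genes higher and 1.89% lower, 3 members were called, all lower: Cryab at -1.98 ± 0.23 (SE, limma adjusted p = 1.0e-06), Egr1 at -1.52 ± 0.21 (1.1e-05) and Dusp1 at -1.44 ± 0.23 (9.8e-05). For each of these the 3 CT26NYESO1 libraries were below the 3 CT26 libraries. Cryab, for example, measured 6.5, 7.18 and 7.65 TPM against 47.4, 20.9 and 29.99.

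The change in MC38OVA minus the change in CT26NYESO1 was tested directly, since a call in a single pair does not show that the pairs differ. It was positive and called for 5 members, where 2.22% of all genes were called positive and 0.396% negative: Cryab at 2.16 ± 0.33 (SE, limma adjusted p = 1.3e-04), Fos at 1.78 ± 0.41 (0.012), Zfp36 at 1.67 ± 0.35 (0.0048), Dusp1 at 1.52 ± 0.32 (0.0054) and Egr1 at 1.49 ± 0.29 (0.0028). In the separate pairs Fos differed by 0.82 and -0.96, and Zfp36 by 0.89 and -0.78 (MC38 pair first), none of them called. Zfp36 measured 53.3, 93.3 and 105 TPM in MC38OVA, 48.2, 33.2 and 49.4 in MC38, 30.9, 25.2 and 21.1 in CT26NYESO1 and 46.1, 35.1 and 54.1 in CT26. All 5 calls were lost without replicate 3 of every line: limma then called 0 of 35 members, and Cryab was at 1.90 (adjusted p = 0.076). Calls over all genes also fell there, to 60 positive and 17 negative of 16792, from 399 and 71 of 17944. At an unadjusted p under 0.05, 9 members were positive and 1 was negative, and the share of all genes at that threshold was not computed. Median-ratio scaling gave 9 calls, where 528 of all genes were called positive and 85 negative. The result also depended on single libraries. Without MC38OVA replicate 1, 9 immediate early members were called positive, while calls over all genes also rose, to 692 positive and 80 negative. Without MC38OVA replicate 3 Fos was at 1.58 (limma adjusted p = 0.052), and without Renca replicate 1 a member was called negative. Leukocyte markers summed to 1176 to 2628 TPM in MC38OVA, 616 to 1081 in MC38, 821 to 857 in CT26NYESO1 and 740 to 993 in CT26, with 10 of 10 at 1 TPM or more in each. Arhgdib averaged 194, 88.5, 330 and 359 TPM in these lines, in that order. Without it the sums were 1052 to 2368, 556 to 973, 465 to 557 and 373 to 636. In the CT26 pair other markers moved: the 4 fibroblast markers summed to 670 to 981 TPM in CT26NYESO1 and 1209 to 1274 in CT26, and the 5 T cell markers to 53.7 to 82.7 and 18.5 to 36.9, with all of them at 1 TPM or more in every library. In the MC38 pair macrophage markers (5 genes) summed to 624 to 1028 in MC38OVA and 192 to 505 in MC38. The part of these in the differences was not tested.

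B16F10 and B16F1, sublines of the same melanoma, differed at many immediate early genes. With 16.4% of all genes lower and 4.53% higher in B16F10, 11 of 24 immediate early members were lower (Btg2, Egr1, Egr2, Fos, Fosb, Ier2, Ier5, Junb, Klf2, Klf4 and Socs3) and Nr4a3 and Dusp2 were higher. Klf2 measured 2.0, 1.9 and 3.33 TPM in B16F10 and 22.1, 24.7 and 23.6 in B16F1, a difference of -2.86 ± 0.24 (SE, limma adjusted p = 1.5e-10). Btg2 at -2.83 ± 0.25 (7.1e-10), Socs3 at -2.65 ± 0.27 (8.9e-09), Ier5 at -2.52 ± 0.21 (1.4e-10) and Klf4 at -1.81 ± 0.23 (4.4e-07) followed, and for each of these 5 genes the groups did not overlap. Nr4a3 was higher by 1.94 ± 0.35 (5.9e-05), Hsp90aa1 by 1.66 ± 0.27 (1.9e-05), Hspb1 by 1.63 ± 0.38 (0.001) and Dusp2 by 1.58 ± 0.24 (6.5e-06). Cryab was lower, at -1.09, but was not called without B16F1 replicate 1 or B16F10 replicate 2 or under either other scaling. Without B16F1 replicate 2 there were 2 lower heat shock members, while calls over all genes rose to 3574 lower from 2937. Median-ratio scaling moved the share of higher genes among all calls from 21.7% to 41.7%, with 9 immediate early members lower. Cell type markers differed as well: fibroblast markers summed to 3.87 to 12.7 TPM in B16F10 (2 of 4 at 1 TPM or more in every library) and 58.3 to 208 in B16F1 (4 of 4), and the 3 endothelial markers to 0.601 to 1.89 and 5.4 to 6.95. Macrophage markers summed to 99.6 to 319 and 197 to 655, which overlapped, and melanocyte markers to 8623 to 12462 and 1372 to 6435. The part of these in the differences was not tested.

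Replicates of a line differed more at heat shock genes than at most genes tested. The residual SD within lines had a median of 0.35 (log2) over the heat shock members and 0.30 over the immediate early members, beside 0.29 over all genes tested, and it exceeded the all-gene median in 10 of 11 and 15 of 24 members. Hspa1b at 0.73 and Hspa1a at 0.65 had the largest values, at the 99.0 and 98.2 percentiles of all genes tested, and Egr3 the smallest at 0.19. The SD between line means divided by the residual SD had a median of 3.16 over the immediate early members, 1.93 over the heat shock members and 1.94 over all genes. It was below 1 for Hspe1 at 0.99, and reached 10.7 for Cryab.

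**Figure D4:**
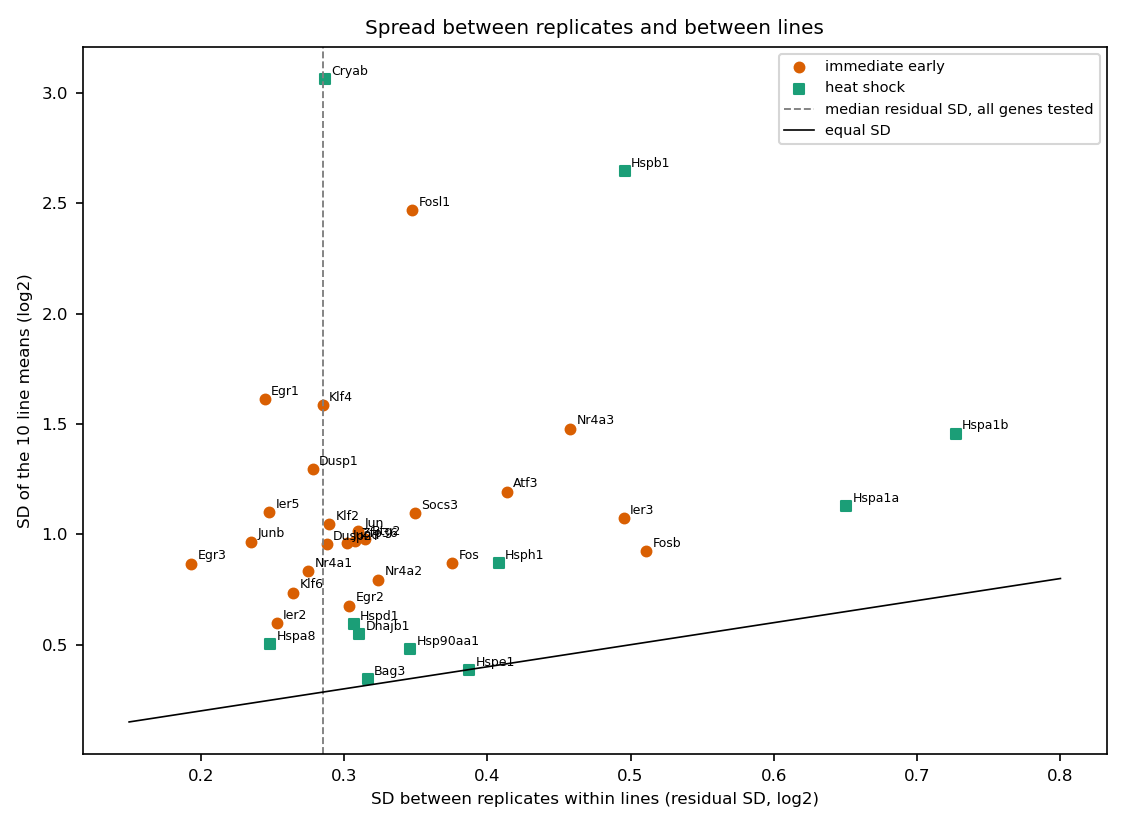
SD of the 10 line means (vertical, log2) against the residual SD within lines (horizontal, log2) for the 35 members, with the dashed line at the median residual SD of all genes tested and the solid line where both are equal. Cryab, Hspb1 and Fosl1 lie far above the solid line, Hspe1 and Bag3 lie on or near it, and Hspa1a and Hspa1b lie farthest to the right.

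In B16F1, LL2 and B16F10 replicate 1 was the highest for most heat shock members, and B16F1 had the widest spread. In B16F1 the median coefficient of variation was 50.3% over the heat shock and 33.2% over the immediate early members, while in the other 9 lines it ran from 10.2% to 23.8% and from 12.5% to 24.3%. Hspa1b measured 35.3, 4.23 and 17.7 TPM in B16F1, an 8.33-fold range, Fosb 12.3, 1.14 and 3.52 and Nr4a3 25.6, 3.83 and 7.24. Replicate 1 was the highest of the line in 9 of 11 heat shock and 15 of 24 immediate early members, and replicate 2 was the lowest for each of the genes just given. For how many of all genes replicate 1 was the highest was not counted, in this line or in those below. These counts therefore have no background beside them. In LL2, replicate 1 was the highest in 10 of 11 heat shock members, with Hspa1a at 41, 8.09 and 6.85 TPM. In B16F10 it was the highest in 9 of 11, with a median coefficient of variation of 23.8%, and the 11 members summed to 4976, 3374 and 3555 TPM. Mitochondrial transcripts took 12.1%, 39.0% and 18.6% of TPM in the 3 B16F1 libraries, 18.3%, 30.9% and 30.3% in those of LL2, and 24.4%, 30.8% and 28.6% in those of B16F10. Replicate 1 thus had the lowest mitochondrial share in each of these lines. This was not particular to them: replicate 1 also had the lowest share in MC38, EMT6, CT26 and Renca. There it was the highest for 7, 4, 7 and 6 of the 11 heat shock members. The part of the mitochondrial share in the spread was not tested.

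**Figure D5:**
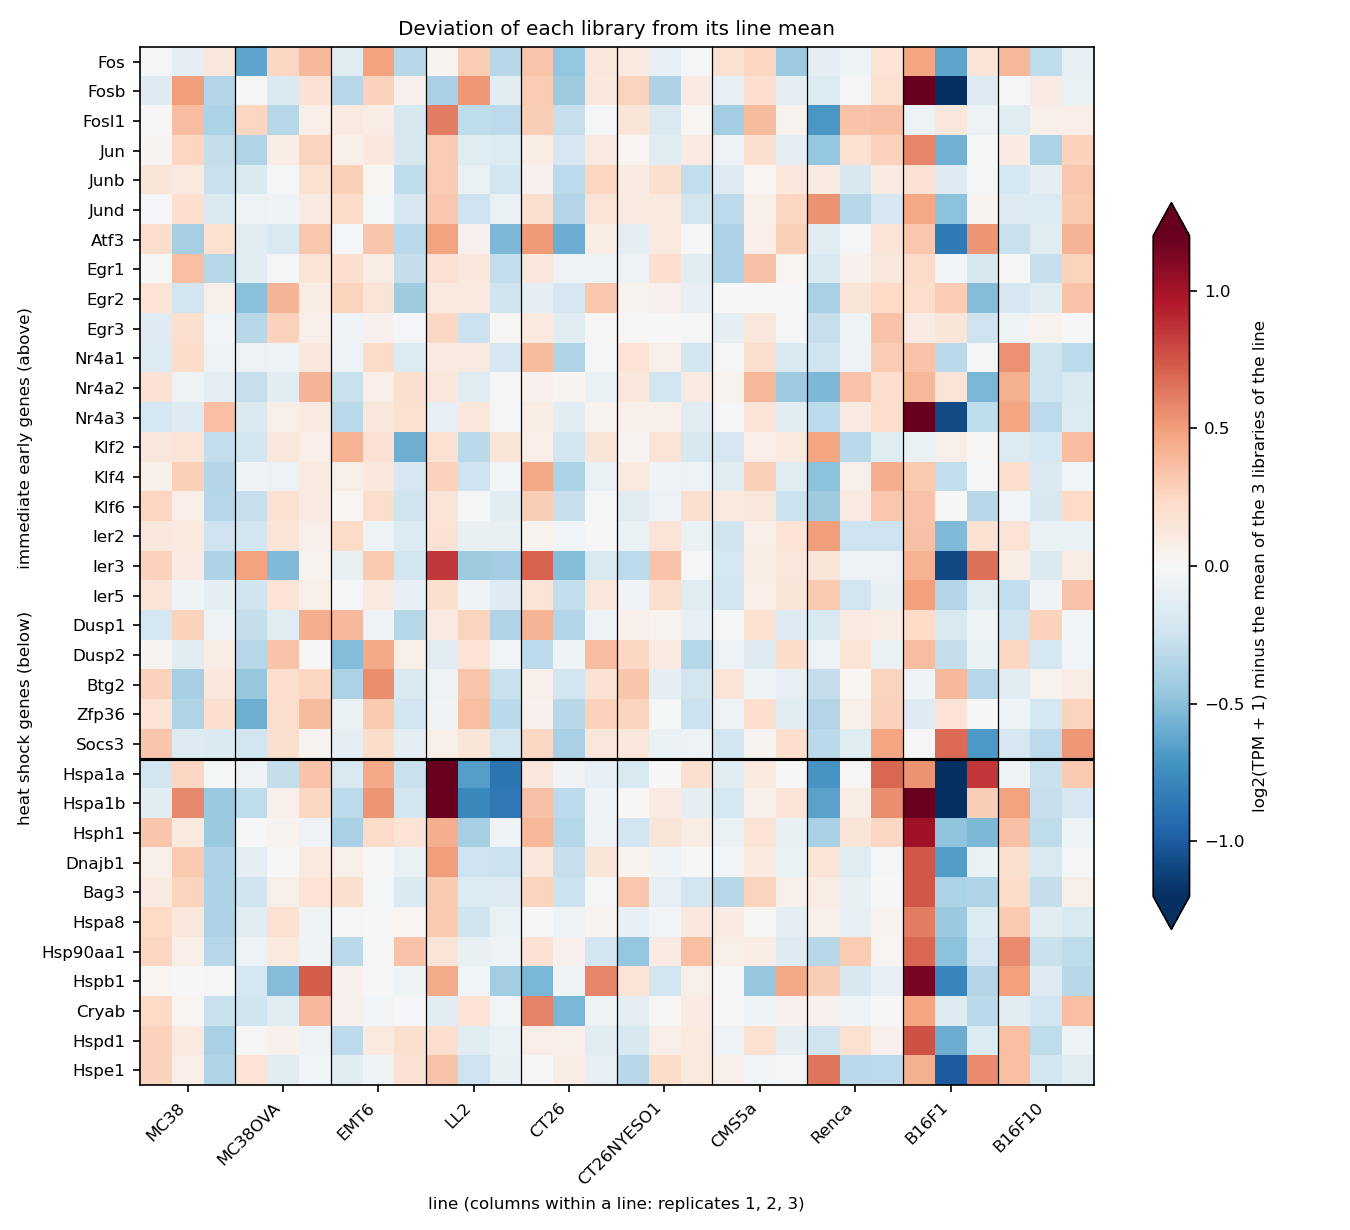
Each cell is the log2(TPM + 1) of a member (vertical axis) in a library (horizontal axis) minus the mean of the 3 libraries of its line, with colours saturating at 1.2. In B16F1 the heat shock members form a red column for replicate 1 and a blue column for replicate 2, and in LL2 Hspa1a and Hspa1b are the strongest red cells, in replicate 1.

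Within lines the heat shock members varied together. The residuals around line means had a median Pearson r of 0.53 over the 55 pairs of heat shock members, all 55 positive, and 0.32 over the 276 pairs of immediate early members (240 positive), beside 0.20 for pairs among every 10th gene tested. These are descriptions over 30 libraries, which share depth, composition and scaling within each library. The heat shock value fell to 0.37 without B16F1 and to 0.29 without B16F1 and LL2, whereas the immediate early value stayed at 0.31 and 0.32. The closest pairs were Hsp90aa1 with Hspd1 at 0.92 and Hsph1 with Hspd1 at 0.90, which were still at 0.90 and 0.87 without both lines. Hspa1a and Hspa1b, which may share reads, were at 0.89, or 0.70 without both lines. Over the 10 line means the order changed: the median r was 0.39 for immediate early and 0.12 for heat shock pairs, and of the immediate early pairs 106 of 276 were above 0.5 and 26 below -0.5. The most alike immediate early pairs were Fosl1 and Jun at 0.93, Jun and Egr3 at 0.91, and Junb and Ier5 at 0.90, and among heat shock pairs Hspa1a and Hspa1b at 0.97 and Hspd1 and Hspe1 at 0.94.

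Other genes of the same responses were followed from lists that were not picked by how they moved, though earlier results of these data were known. Of 35 further immediate early genes, among them kinase phosphatases, NF-kappaB inhibitors and chemokines, 19 were higher and 1 was lower in EMT6, and 2 were higher and 24 lower in B16F10. The higher ones in EMT6 were 54.3% of the list, against 10.2% of all genes, and the lower ones in B16F10 68.6%, against 23.2%. Such shifts were not particular to these lines. In B16F1 15 were lower (42.9% against 13.2%), in Renca 8 were lower (22.9% against 10.5%), and in CT26 8 were higher (22.9% against 8.25%). Cxcl2 and Cxcl1, which attract neutrophils, had their highest means in EMT6, at 109 ± 14.5 and 62.8 ± 15.5 TPM (SD, n = 3), as did Sgk1, a serum-induced kinase, at 186 ± 15.3. Of 10 regulators (serum response factor, its ETS partners, MAP kinases, CREB and heat shock factors), 2 were lower in Renca, 2 in B16F10 and 1 in MC38, and CT26, CT26NYESO1 and CMS5a had 1 higher each. The B16F10 share of 20% was below the 23.2% of all genes called lower there. The lower share was 20% against 10.5% in Renca and 10% against 4.06% in MC38. The higher share of 10% stood against 8.25% of all genes in CT26, 6.84% in CT26NYESO1 and 9.23% in CMS5a. Each share of 10% is a single gene. Elk3, an ETS partner, was highest in CT26NYESO1 at 101 ± 9.05 TPM, and Elk4 in LL2 at 61.2 ± 2.2. Of 35 further cytosolic chaperones and cochaperones, 5 were higher in EMT6 (14.3%, against 10.2% of all genes), 3 higher in Renca (8.57% against 12.4%) and 2 higher in CMS5a (5.71% against 9.23%), and 6 were lower in Renca (17.1% against 10.5%) and 2 in CMS5a (5.71% against 4.49%), so most of these shares lay near the background. Dnaja4, an HSP40, measured 13.7, 15.5 and 14.1 TPM in EMT6 and at most 0.878 ± 0.087 on average in any other line, and Hspb8, a partner of BAG3, ranged from 3.64 ± 1.82 in B16F10 to 136 ± 7.36 in EMT6. Of 15 chaperones of the endoplasmic reticulum and mitochondria, 4 were higher in Renca (26.7% against 12.4% of all genes), where Ddit3, the stress factor CHOP, averaged 197 ± 86.2 TPM, Sdf2l1 129 ± 25.9 and the mitochondrial protease Lonp1 214 ± 29.5.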

How the data were processed

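Per the submitters' processing notes, the tools were Trim Galore 0.6.5, STAR 2.7.3a and StringTie 2.1.2 and the genome mm10, with reads from TruSeq Stranded mRNA libraries, per the labels' protocols. The authors deposited TPM values per gene symbol for 30 libraries in 1 table. TPM hold no counts, so no count model was used and the precision behind a low value is unknown.

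From that table, log2(TPM + 1) was fitted with limma 3.58.1 in R 4.3.3 (trend, 30 libraries, 10 lines, 20 residual degrees of freedom) over the genes that reached 1 TPM in 3 or more libraries. Differences are on that scale, which understates changes of low genes. P-values were adjusted by Benjamini-Hochberg over all 17944 genes. Members were called at an adjusted p under 0.05 and a log2 difference, or range of line means, of at least 1. The members and lists were chosen with earlier results of these data known. Statistics are given, per line, for up to 3 immediate early and 3 heat shock members with the largest called rise and 2 of each with the largest called fall, and for up to 5 rises and 5 falls per pair. For the related lists, up to 3 genes with the widest range of line means are named. Genes beyond this rule were named after their values were seen, such as Hsf1 beside the heat shock results.

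Replicate numbers were not taken to pair libraries across lines: the median correlation of deviations was 0.00476 for the same number, and 46 of 135 such pairs were above 0.1. The highest of them, 0.42, was that of replicate 1 of B16F10 and B16F1, whose replicates 2 and 3 were at 0.14 and 0.0025. A shared batch of some libraries can therefore not be excluded. The model was tested on simulated data with 200 genes changed by 1.5 (log2) in the EMT6 comparison among 17944 genes, of which 97.5% were called, with 1 false call. The simulated noise was normal and independent between genes, with the same mean and SD in every line, and the changed genes were drawn from the better expressed ones. It therefore checks that the code recovers a planted change, and does not give the rate of missed or false calls in the real libraries. Alternatives were no filter on low values, the log scale with 0.1 in place of 1, calls by adjusted p alone, median-ratio scaling, rescaling without mitochondrial and haemoglobin genes, fits without the melanoma lines, without the related line or within a pair only, a replicate block, and fits without each library. Leaving out each library in the antigen-pair difference, leaving out libraries of other lines, the leukocyte sum without Arhgdib, and the correlations without B16F1 and LL2 were added after the data had been seen. Gene positions are from GENCODE (mm10). Promoters were matched by symbol and searched in Python 3.11.15, and transcripts were aligned with Biopython 1.88.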

Additional observations from a re-analysis of the deposited data

Results flagged for a closer look

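The members below are listed because the change from MC38 to MC38OVA differed from that from CT26 to CT26NYESO1 in limma's test of the difference itself. For Cryab the difference was 2.16 (log2), from 0.17 in the MC38 pair and -1.98 in the CT26 pair. For Fos it was 1.78, for Zfp36 1.67, for Dusp1 1.52 and for Egr1 1.49. Dusp1 differed by 0.08 in the MC38 pair and -1.44 in the CT26 pair, and Egr1 by -0.04 and -1.52. The 5 were read from 35 members, 3 libraries stand behind each line mean, and the antigens differ as well as the parent lines, so these cannot be told apart. Without replicate 3 of every line limma called 0 of the 35 members for this difference. Calls over all genes fell to 60 positive and 17 negative, from 399 and 71. At an unadjusted p under 0.05, 9 members were positive and 1 was negative, and the share of all genes at that threshold was not computed.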

How the results depend on the processing

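Of 1122 alternative values for the 80 member results given with statistics, 0 changed direction, 1091 kept their call and 31 no longer passed. With a replicate block the number of members called was 22 in EMT6, 20 in B16F10, 16 in B16F10 against B16F1 and 5 in the antigen-pair difference, and no call of those 80 results changed. Median-ratio scaling gave 5 called members in CT26NYESO1 against CT26 (from 3) and 9 in the antigen-pair difference (from 5), and a fit of the pair's 6 libraries alone gave 5 in CT26NYESO1 against CT26. Leaving out replicates gave 0 to 10 members in the antigen-pair difference and 0 to 4 in MC38OVA against MC38 (from 0). Over all genes, CT26NYESO1 against CT26 had 68 higher and 340 lower in the main fit, and 61 and 338 under median-ratio scaling. The fit of the pair's 6 libraries alone called 77 higher and 356 lower of 14005 genes. In the antigen-pair difference calls over all genes moved more, from 399 positive and 71 negative in the main fit. They were 528 and 85 under median-ratio scaling and 60 and 17 without replicate 3. Without the fold threshold the calls numbered 15 in MC38, 21 in MC38OVA, 23 in LL2, 18 in CT26, 17 in CT26NYESO1, 19 in CMS5a, 24 in Renca and 22 in B16F1. Over all 17944 genes this setting called 4625 higher and 3196 lower in MC38, 4374 and 3099 in MC38OVA, and 3959 and 4856 in LL2. It called 4030 and 3620 in CT26, 3967 and 3732 in CT26NYESO1, and 4509 and 3219 in CMS5a. In Renca it called 4699 and 6207, and in B16F1 3491 and 6692, so many genes beyond the members passed too. With MC38OVA out of the average, MC38 had 8 called members (from 5). Calls over all genes then rose to 1796 higher and 885 lower (from 1479 and 728). Depth limits low members in a way that cannot be stated from TPM, and 3 libraries per line limit precision. Apart from what a setting removes, the cause of these shifts was not tested.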
